A study of Mus musculus with 6 samples.

Results

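Arterial smooth muscle cells can lay down calcium phosphate mineral, and 10 genes that promote or restrain this were followed here in cultured mouse vascular smooth muscle cells depleted of Pfkfb3. They were taken by gene symbol, from 24970 rows of the deposited expression table. There were 4 promoters of mineralization (Runx2, Alpl, Slc20a1 and Slc20a2) and 6 inhibitors (Enpp1, Ank, Nt5e, Mgp, Spp1 and Tnfrsf11b). Tnfrsf11b, which encodes the secreted decoy receptor osteoprotegerin, rose to 198% of the control mean in the siPfkfb3 samples, at 235.8 ± 5.63 FPKM, against 118.9 ± 3.79 FPKM in siScrambled (mean ± SD, n = 3 each). Of the other 7 members that could be tested, none passed the test, which 36.3% of all tested genes passed. Alpl and Nt5e were too low to be tested.

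RNA was sequenced from primary vascular smooth muscle cells, which form the muscular layer of arteries, isolated with collagenase from 6-week-old male C57BL/6 mice. For 48 h the cells carried 20 nM of either an siRNA against Pfkfb3 (siPfkfb3, 3 samples) or a scrambled siRNA (siScrambled, 3 samples), both delivered with Lipofectamine RNAiMAX. Small interfering RNAs guide the cell to cut mRNAs that match them, and Pfkfb3 encodes an enzyme whose product activates glycolysis. The labels give normal growth medium for all 6 samples and name no added phosphate or other mineralizing agent, so these are levels in cells that were not labelled as calcifying.

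Mineral forms where phosphate is available and pyrophosphate, which blocks crystal growth, is scarce. Enpp1 makes pyrophosphate from ATP outside the cell, Ank supplies it by transport across the cell membrane, and the phosphatase encoded by Alpl destroys it. Smooth muscle cells also secrete proteins that hold mineral in check, such as matrix Gla protein (Mgp) and osteopontin (Spp1), and in calcifying arteries they can take on features of bone-forming cells under the transcription factor Runx2.

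Values are in FPKM (sequenced fragments relative to transcript length and to the library's total), so levels of different genes can be compared, while the number of reads behind a value is unknown. In each library 11189 to 11247 genes were at 1 FPKM or more. Across genes, which are no independent replicates, correlations ran from 0.993 to 0.995 for pairs of the same group and 0.979 to 0.983 for other pairs. Pfkfb3 stood at 1.92, 1.65 and 1.77 FPKM in siPfkfb3 and at 4.03, 4.02 and 3.86 FPKM in siScrambled, so the targeted gene was at 44.9% of its control mean. For siPfkfb3 replicates 2 and 3 the genotype labels read PFKFB4 and PFKFB5, but the titles read PFKFB3, and Pfkfb3 is low in both. Pfkfb4 stood at 1.95, 1.49 and 1.53 FPKM in siPfkfb3 and at 1.58, 1.96 and 2.10 FPKM in siScrambled. These groups overlapped, and Pfkfb4 did not pass (log2 fold change −0.12; limma, adjusted p = 0.417). Over all tested genes 15.8% were called higher and 20.5% lower in siPfkfb3, and the marker counts stand beside these shares. Of 8 smooth muscle markers, all of which reached the level needed for testing, Acta2 and Cnn1 rose and none was called lower, and the median log2 fold change was −0.08. The groups of 5 of them (Tagln, Myh11, Smtn, Myocd and Des) did not overlap and were lower in siPfkfb3, as for 27.7% of all tested genes. Of these 5 markers, Des (adjusted p = 0.0509) was called lower in 5 of 14 alternatives, Tagln in 2 of 15 and Smtn in 1 of 15. The summed level of the 8 was 2469 to 2540 FPKM in siPfkfb3 and 2129 to 2228 FPKM in siScrambled, of which Acta2 held 1700 ± 29.9 FPKM in siPfkfb3 and 1340 ± 39.0 FPKM in siScrambled. Of 6 adventitial fibroblast markers, Dpt, Lum, Pi16 and Cd34 fell and Pdgfra rose (Pdgfra not without any siPfkfb3 library or siScrambled replicate 1 or 3, Pi16 not without replicate 1 of either group, and Lum not under quantile normalization, where its log2 fold change was −0.07, adjusted p = 0.232, nor without trend and robust fitting, adjusted p = 0.0563), and their summed level was 407 to 432 FPKM in siPfkfb3 and 492 to 504 FPKM in siScrambled. Ly6a, the remaining adventitial marker, was not called, but passed as lower with the replicate number as a block (limma, adjusted p = 0.00381). The 6 endothelial markers, all too low to be tested, summed to 0.540 to 0.757 FPKM in siPfkfb3 and 1.01 to 1.21 FPKM in siScrambled, which did not overlap, and Tek among them was lower without the filter on low values (adjusted p = 0.0123). Among 7 leukocyte markers the defining gene Ptprc was at 0 in 5 of the 6 libraries, and none of the 3 that could be tested passed, with summed levels of 16.0 to 16.6 FPKM in siPfkfb3 and 14.8 to 15.4 FPKM in siScrambled. Most of that sum was Lyz2, at 13.4 ± 0.312 FPKM in siPfkfb3 and 12.2 ± 0.0970 FPKM in siScrambled, which did not overlap and which passed as higher with TPM, TMM or quantile scaling (adjusted p of 0.0313 to 0.0417). In the other direction, Cd68 passed as lower without siPfkfb3 replicate 1 (log2 fold change −0.49; limma, adjusted p = 0.0174). The part of these other cell types in the results below was not tested. Exons of the markers Cd34, Pi16, Pdgfra, Tagln, Smtn and Des overlap genes on the opposite strand. Without the strand setting their values are less certain.

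The levels of the 10 genes spanned more than 4 orders of magnitude. Mgp had the second-highest mean FPKM of all 24970 rows and took 0.950% to 1.12% of the summed FPKM of a library. Tnfrsf11b came next in both groups and ranked 291 of all rows by its mean over the 6 samples. Slc20a2, Spp1, Slc20a1, Ank, Enpp1 and Runx2 followed in that order of means in both groups, between 3.12 and 20.5 FPKM in single libraries. In siPfkfb3 the ranges of these neighbours did not touch. In siScrambled those of Slc20a2 and Spp1 overlapped and the others did not. Alpl and Nt5e came last in both groups, between 0.135 and 0.395 FPKM, and their ranges overlapped within each group.

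**Figure D1:**
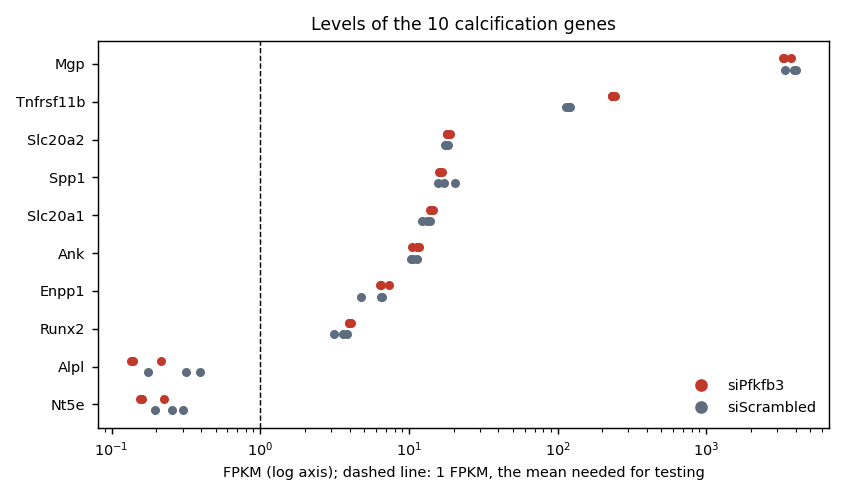
FPKM of each of the 10 genes on a log axis, 1 point per library, siPfkfb3 (red) above siScrambled (grey), with genes sorted by their siScrambled mean. Mgp lies between 3312 and 4032 FPKM and Alpl and Nt5e lie below 0.4 FPKM, left of the dashed line at 1 FPKM.

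Genes whose mean reached 1 FPKM were tested on log2(FPKM + 1) by limma, a linear model with a spread shared across genes. An adjusted p under 0.05 counts as a call, and a log2 fold change is the siPfkfb3 mean minus the siScrambled mean of those values, too small for low genes. Of 11240 tested genes, 36.3% were called: 15.8% higher and 20.5% lower in siPfkfb3. These are 1775 higher and 2304 lower genes, and the counts were more even with TPM (1950 and 2038), TMM (2003 and 2047) or quantile scaling (1983 and 2044). Of the 8 tested members, 1 was called higher and 0 lower. Their median log2 fold change was 0.07, beside −0.02 over all tested genes. Between the groups 49.5% of all tested genes did not overlap, with 21.8% of all tested genes higher and 27.7% lower in siPfkfb3. Of the 8 tested members 2 did not overlap, Runx2 and Tnfrsf11b, both higher. Whether the 3 samples of a group came from separate mice is not given in the sources used here, so p-values cover the spread between samples alone, and that spread may be technical.

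**Figure D2:**
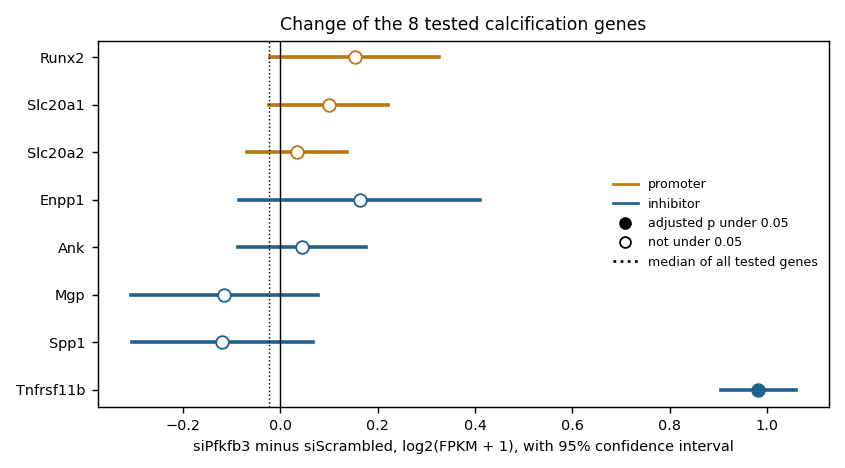
Log2 fold change of the 8 tested members, siPfkfb3 minus siScrambled, with 95% confidence intervals from limma, promoters in orange and inhibitors in blue, filled where the adjusted p is under 0.05. The interval of Tnfrsf11b runs from 0.90 to 1.06, and those of the other 7 members include 0.

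Among the promoters, 0 of 3 tested genes were called in either direction, beside 36.3% of all tested genes. Their log2 fold changes were 0.03 to 0.15, with a median of 0.10. Runx2 (ENSMUSG00000039153; chromosome 17, 44495987 to 44814797, minus strand, GRCm38), the factor that commits cells to the bone lineage, stood at 3.98, 4.10 and 3.98 FPKM in siPfkfb3 and at 3.12, 3.62 and 3.84 FPKM in siScrambled. The groups did not overlap, as was the case, in the same direction, for 21.8% of all tested genes. The lowest value was that of siScrambled replicate 1, and the siScrambled samples varied more among themselves (coefficient of variation 10.6%) than the siPfkfb3 samples did (1.77%). The log2 fold change of 0.15 did not pass (limma, adjusted p = 0.156), and its 95% confidence interval ran from −0.02 to 0.33. Without siScrambled replicate 1 it was 0.09 (adjusted p = 0.417). Exons of Runx2 overlap those of a gene on the opposite strand, Runx2os1, and whether counting used strand is not given in the sources used here.

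Spp1 is a textbook target of Runx2, and the stretch before its start site holds the bone-gene element AACCACA that Runx2 is known to bind. The same letters occur before the distal RefSeq start of Runx2 itself. Both stretches are shown for these letters and where they lie. They are the 250 bases before the start site in RefSeq's GRCm38.p6 annotation, read 5′ to 3′ on the gene's strand, with AACCACA in capitals. The Runx2 stretch is chr17:44814628-44814877 on the minus strand, and the Spp1 stretch is chr5:104434861-104435110 on the plus strand. In GENCODE M21, however, Runx2 begins farther upstream, at 44814797. Part of the Runx2 stretch, with the element, therefore lies inside the gene as annotated there.
Runx2: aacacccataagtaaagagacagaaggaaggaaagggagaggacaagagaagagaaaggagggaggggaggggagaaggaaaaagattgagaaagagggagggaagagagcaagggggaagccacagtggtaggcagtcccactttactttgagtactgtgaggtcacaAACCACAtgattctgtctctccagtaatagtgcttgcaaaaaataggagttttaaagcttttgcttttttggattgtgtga
Spp1: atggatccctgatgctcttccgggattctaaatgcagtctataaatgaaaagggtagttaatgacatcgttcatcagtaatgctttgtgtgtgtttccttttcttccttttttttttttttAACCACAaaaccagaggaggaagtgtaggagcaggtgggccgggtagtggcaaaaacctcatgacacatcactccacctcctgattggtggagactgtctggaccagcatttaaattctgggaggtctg
The element begins 81 bases before the start site in Runx2 and 129 bases before it in Spp1. Searched as AACCACA on either strand (TGTGGTT on the other), it occurs in 4.40% of 32851 RefSeq promoters of the same length. RefSeq promoters were found for 7 of the 10 members, and 3 of these (Runx2, Spp1 and Slc20a1) hold it in at least 1 of their promoters. Counted per promoter, as the 4.40% is, 3 of the 10 promoters of these members hold it. A match describes the sequence and says nothing of binding in these cells.

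Alpl (ENSMUSG00000028766; chromosome 4, 137741733 to 137796384, minus strand), the tissue-nonspecific alkaline phosphatase that removes pyrophosphate, was below 0.4 FPKM in every library. It was listed at 0.135, 0.216 and 0.139 FPKM in siPfkfb3 and at 0.175, 0.395 and 0.317 FPKM in siScrambled. The siPfkfb3 mean was 55.2% of the siScrambled mean, but siPfkfb3 replicate 2 lay above siScrambled replicate 1, so the groups overlapped. Alpl was not tested because its mean was below 1 FPKM. With no filter on low values its log2 fold change was −0.15 (limma, adjusted p = 0.220).

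The sodium-dependent phosphate importers Slc20a1 and Slc20a2 bring phosphate into the cell. Slc20a1 (ENSMUSG00000027397; chromosome 2, 129198764 to 129211616, plus strand) stood at 14.5, 13.8 and 14.2 FPKM in siPfkfb3 and at 12.3, 13.8 and 13.3 FPKM in siScrambled. The groups met at a single pair of near-equal values, 13.76 FPKM in siPfkfb3 replicate 2 and 13.77 FPKM in siScrambled replicate 2, and the log2 fold change of 0.10 did not pass (95% interval −0.02 to 0.22; limma, adjusted p = 0.183). Without siScrambled replicate 1, its lowest library, the value was 0.06. Slc20a2 (ENSMUSG00000037656; chromosome 8, 22476788 to 22569612, plus strand), whose loss in people leads to calcified brain vessels and which is counted among the promoters here as an importer, stood at 18.0, 18.9 and 18.0 FPKM in siPfkfb3 and at 18.4, 17.6 and 17.6 FPKM in siScrambled. Its groups overlapped, with a log2 fold change of 0.03 (interval −0.07 to 0.14; limma, adjusted p = 0.591). The ratio of Slc20a1 to Slc20a2 FPKM averaged 0.772 ± 0.0400 in siPfkfb3 and 0.736 ± 0.0581 in siScrambled (SD, n = 3 each). Exons of both importers overlap genes on the opposite strand. For Slc20a2 this is Smim19, at 7.88 to 8.40 FPKM in siPfkfb3 and 7.64 to 8.63 FPKM in siScrambled.

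**Figure D3:**
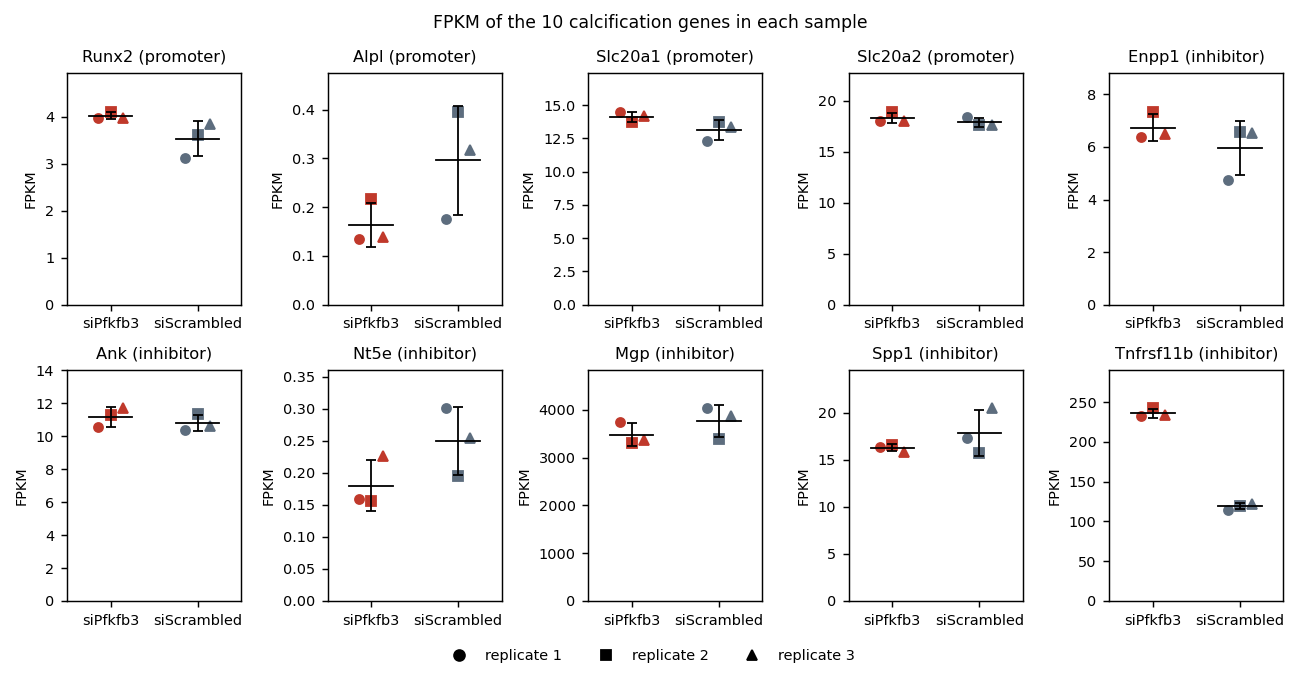
FPKM of each gene in each library, siPfkfb3 left and siScrambled right in every panel, with axes from 0, 1 symbol per replicate number, and the mean ± SD in black. Tnfrsf11b shows 2 groups that stand far apart. In siScrambled replicate 1 (circle) Runx2, Slc20a1, Enpp1, Ank and Tnfrsf11b each have their lowest value of the 6 libraries.

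The inhibitors that act through pyrophosphate and adenosine are Enpp1, Ank and Nt5e. Enpp1 (ENSMUSG00000037370; chromosome 10, 24637914 to 24712159, minus strand), which cleaves ATP to AMP and pyrophosphate, stood at 6.40, 7.34 and 6.48 FPKM in siPfkfb3 and at 4.76, 6.58 and 6.53 FPKM in siScrambled. Only siScrambled replicate 1 lay below the siPfkfb3 values, and the other 2 controls lay among them. The log2 fold change of 0.16 did not pass (95% interval −0.08 to 0.41; limma, adjusted p = 0.281) and was 0.03 without that library (adjusted p = 0.774). Ank (ENSMUSG00000022265; chromosome 15, 27466677 to 27594909, plus strand), the membrane protein that carries ATP and pyrophosphate out of the cell, stood at 10.5, 11.3 and 11.7 FPKM in siPfkfb3 and at 10.4, 11.4 and 10.7 FPKM in siScrambled, groups that overlapped throughout (log2 fold change 0.04, interval −0.09 to 0.18; limma, adjusted p = 0.589).

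Nt5e (ENSMUSG00000032420; chromosome 9, 88327197 to 88372092, plus strand), the cell-surface enzyme that turns AMP into adenosine and whose loss in people calcifies arteries, was listed at 0.159, 0.156 and 0.226 FPKM in siPfkfb3 and at 0.301, 0.195 and 0.255 FPKM in siScrambled. The groups overlapped, and Nt5e was too low to be tested. Without a filter its log2 fold change was −0.08 (limma, adjusted p = 0.350). Between the enzymes that remove and make pyrophosphate, Alpl had 0.0240 ± 0.00470 times the FPKM of Enpp1 in siPfkfb3 and 0.0484 ± 0.0117 times in siScrambled (SD, n = 3 each). These ratios rest on the low values of Alpl and carry no test.

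The other inhibitors are secreted. Mgp (ENSMUSG00000030218; chromosome 6, 136872435 to 136875823, minus strand), a vitamin K-dependent protein whose loss in mice calcifies the arteries, stood at 3748, 3312 and 3364 FPKM in siPfkfb3 and at 4032, 3388 and 3878 FPKM in siScrambled. Within each group the libraries differed by more than the group means did, and the groups overlapped. The log2 fold change was −0.11 (95% interval −0.31 to 0.08; limma, adjusted p = 0.311). This value passed the threshold without siScrambled replicate 2 (−0.19, adjusted p = 0.0419) and under quantile normalization (−0.16, adjusted p = 0.0330), but in no other single-library omission, with −0.06 without siScrambled replicate 1 (adjusted p = 0.585), and not under TPM or TMM scaling. It also passed with the replicate number as a block (adjusted p = 0.0293).

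Spp1 (ENSMUSG00000029304; chromosome 5, 104435118 to 104441050, plus strand), an acidic phosphoprotein that binds to mineral and to integrins, stood at 16.3, 16.6 and 15.9 FPKM in siPfkfb3 and at 17.3, 15.7 and 20.5 FPKM in siScrambled. The 3 siPfkfb3 values lay close together, and siScrambled replicate 3 was above all others. The log2 fold change of −0.12 did not pass (95% interval −0.30 to 0.07; limma, adjusted p = 0.297) and was −0.02 without siScrambled replicate 3. Exons of Spp1 overlap Gm42793, and those of Ank overlap Mir7117, each on the same strand.

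Tnfrsf11b (ENSMUSG00000063727; chromosome 15, 54250619 to 54278484, minus strand) was the only tested member that was called. Its product, osteoprotegerin, captures RANKL, the signal for bone-resorbing cells encoded by Tnfsf11, and mice that lack it develop calcified arteries and thin bone. It stood at 231.9, 242 and 233 FPKM in siPfkfb3 and at 115, 120 and 122 FPKM in siScrambled. Every siPfkfb3 value was well above every siScrambled value, and the spread within a group was small (coefficients of variation of 2.39% in siPfkfb3 and 3.19% in siScrambled). The siPfkfb3 mean was 198% of the siScrambled mean, and the log2 fold change was 0.98 ± 0.03 (SE; 95% interval 0.90 to 1.06; limma, adjusted p = 2.57e-07). Among the 11240 tested genes it ranked 62 by log2 fold change from the highest and 7 by p-value. In bulk RNA, fewer cells of a type and less RNA per cell cannot be told apart, and the same holds for a rise.

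The call of Tnfrsf11b held in all 15 alternatives that were run, with log2 fold changes of 0.96 to 1.02 and adjusted p of at most 7.30e-05 (limma). Its exons overlap no other gene of the GENCODE M21 annotation. In an earlier search of these data, genes with GAAGAAC in the longest 3′ UTR tended to be lower in siPfkfb3 and those with any of 3 others, CGGAGAA or TCGGAGA, which overlap in sequence, or the unrelated TGTCACG, tended to be higher. Here the median log2 fold change was −0.08 over 1194 carriers of GAAGAAC and 0.08 over 746 carriers of the other letters, beside −0.02 over all 10857 genes searched. These heptamers had been chosen on the same fold changes. Tnfrsf11b carries none of the 4, and of the 10 members only Alpl carries any, GAAGAAC. Among the tested genes of the related lists and markers, GAAGAAC occurs in Slc29a1, Itga5 and Pi16, which fell, and in Grem1, which was not called. One of the other 3 occurs in Vkorc1l1, which rose, in Tgm2 and Cd34, which fell, as did the targeted Pfkfb3, which carries one too, and in Lyz2 and Sort1, which were not called. Their part in the results was not tested.

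Tnfsf11, the RANKL gene, was listed at 0.469, 0.443 and 0.416 FPKM in siPfkfb3 and at 0.211, 0.308 and 0.222 FPKM in siScrambled. These groups did not overlap, but the mean was under 1 FPKM. With no filter on low values its log2 fold change was 0.21 (limma, adjusted p = 0.0451). The ratio of Tnfsf11 to Tnfrsf11b FPKM averaged 0.00188 ± 0.000127 in siPfkfb3 and 0.00208 ± 0.000431 in siScrambled (SD, n = 3 each), groups that overlapped. Tnfrsf11a, the receptor for RANKL, was at most 0.0415 FPKM in any library. Tnfsf11 and the ratio were singled out after their values had been seen.

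Among the 3 tested genes most like Tnfrsf11b over the 6 libraries, by the Euclidean distance between centred log2(FPKM + 1) values, were Spop (distance 0.119) and Megf10 (0.138). Spop, an adaptor of ubiquitin ligases, had 47.1 ± 1.60 FPKM in siPfkfb3 and 24.03 ± 0.821 FPKM in siScrambled. Megf10, a receptor for the uptake of dying cells, had 4.94 ± 0.155 FPKM in siPfkfb3 and 2.04 ± 0.0729 FPKM in siScrambled (mean ± SD, n = 3 each).

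Genes with related roles were followed in 6 lists, and the plot of the related lists shows every tested gene. The lists were written from textbook knowledge, but with earlier results of these data known. Exons of Slc29a1, Runx1, Twist2, Gas6, Itga8 and Itgav overlap genes on the opposite strand, and without the strand setting their values are less certain. The counts of the lists stand beside the 15.8% of all tested genes called higher and the 20.5% called lower. Of 21 genes that handle phosphate, pyrophosphate and adenosine, 11 could be tested, of which 0 rose and 6 fell, with a median log2 fold change of −0.14. Ada did not pass (0.26; limma, adjusted p = 0.176), but was higher with the replicate number as a block (adjusted p = 0.0377). Slc29a1, the nucleoside transporter that carries adenosine across the membrane, stood at 47.6, 48.3 and 50.4 FPKM in siPfkfb3 and at 69.7, 70.8 and 67.6 FPKM in siScrambled. All siPfkfb3 values were below all controls (log2 fold change −0.50 ± 0.04 SE; limma, adjusted p = 1.00e-05). Entpd2, which cleaves ATP outside the cell, fell to 4.68 to 5.55 FPKM in siPfkfb3, against 6.59 to 7.22 FPKM in siScrambled (−0.41; adjusted p = 0.00199), and its exons overlap those of Npdc1.

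The adenosine receptors Adora2b and Adora2a also fell. Adora2b had 2.96 ± 0.0769 FPKM in siPfkfb3 and 4.16 ± 0.150 FPKM in siScrambled (log2 fold change −0.38; limma, adjusted p = 0.00163), and Adora2a had 4.99 ± 0.252 FPKM in siPfkfb3 and 6.24 ± 0.222 FPKM in siScrambled (−0.27; adjusted p = 0.00754). Entpd5 fell as well (−0.24). Adk, the kinase that turns adenosine back into AMP, passed narrowly (−0.14; limma, adjusted p = 0.0434). Its call ended under quantile, TPM and TMM scaling (adjusted p of 0.0607 to 0.0838) and without siPfkfb3 replicate 2 or 3 or siScrambled replicate 1 or 2 (adjusted p of 0.0551 to 0.139). The call of Adk also ended without the filter on low values and without trend and robust fitting (limma, adjusted p = 0.0881 and 0.0865). The phosphate exporter Xpr1 and the pyrophosphatases Ppa1 and Ppa2 did not pass, with log2 fold changes of −0.14, 0.12 and 0.02. The bone phosphatase gene Phospho1, at 0.854 to 1.38 FPKM in siPfkfb3 and 0.717 to 0.947 FPKM in siScrambled, was below the level for testing. Slc34a1, Slc34a2 and Slc34a3, the phosphate importers of kidney and gut, were listed at 0 in all 6 libraries.

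**Figure D4:**
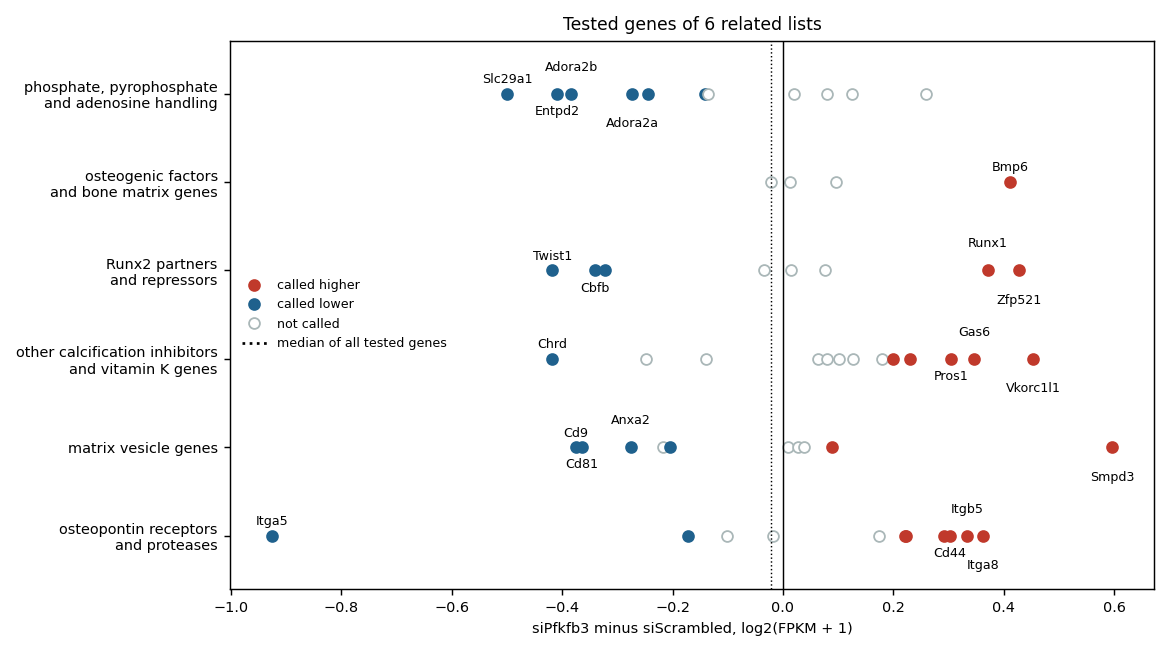
Log2 fold change, siPfkfb3 minus siScrambled, of each tested gene in 6 lists of related genes, filled red where called higher, filled blue where called lower and open where not called, with the genes of largest change named. In the adenosine and phosphate list all 6 called genes lie left of 0, and among osteopontin receptors and proteases 6 of the 8 called genes lie right of it.

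Of 18 osteogenic factors and bone matrix genes only 4 could be tested. The markers of mature osteoblasts and osteocytes (Bglap, Sp7, Ibsp, Dmp1, Sost and Mepe) summed to 0.395 to 0.860 FPKM in siPfkfb3 and 0.517 to 0.772 FPKM in siScrambled, and Mepe was at 0 in every library. Of the 4 tested genes, Bmp6, a bone morphogenetic protein, rose and none fell. It stood at 2.18, 2.12 and 2.18 FPKM in siPfkfb3 and at 1.12, 1.47 and 1.57 FPKM in siScrambled (log2 fold change 0.41 ± 0.09 SE; limma, adjusted p = 0.00690). Its exons overlap those of Txndc5 on the opposite strand. Bmp4 (0.10), Sox9 (0.01) and Pth1r (−0.02) did not pass, although Bmp4 did under TPM, TMM and quantile scaling. Bmp4 stood at 66.8 to 70.4 FPKM in siPfkfb3 and at 62.0 to 64.8 FPKM in siScrambled. Its groups did not overlap, as was the case, in the same direction, for 21.8% of all tested genes. Exons of Bmp4 and Pth1r overlap Gm15217 and Myl3 on the opposite strand.

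Runx2 acts with partner proteins and is held back by repressors. Of 10 such genes 8 could be tested, of which 2 rose and 3 fell, with a median log2 fold change of −0.01. Cbfb, the subunit that Runx proteins need for stable DNA binding, fell to 29.0 ± 0.867 FPKM in siPfkfb3, against 37.0 ± 2.01 FPKM in siScrambled (log2 fold change −0.34; limma, adjusted p = 0.000511). Twist1, a repressor of Runx2 activity, fell to 9.67 ± 0.545 FPKM in siPfkfb3, against 13.2 ± 0.430 FPKM in siScrambled (−0.42; adjusted p = 0.000369). Twist2 fell as well (−0.32; limma, adjusted p = 0.0202), a call that ended without siPfkfb3 replicate 3 or siScrambled replicate 1 (adjusted p = 0.0665 and 0.0502). Nor did Twist2 pass without the filter on low values (limma, adjusted p = 0.0660). The related factor Runx1 stood at 9.43, 9.09 and 8.62 FPKM in siPfkfb3 and at 6.72, 6.78 and 6.79 FPKM in siScrambled, groups that did not overlap (0.37; adjusted p = 0.000723). Zfp521, a zinc finger repressor of Runx2, rose to 8.70 ± 0.619 FPKM in siPfkfb3, against 6.22 ± 0.452 FPKM in siScrambled (0.43; limma, adjusted p = 0.00132).

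Among 13 tested genes of other calcification inhibitors and of the vitamin K cycle, which activates Mgp, 5 rose and 1 fell, with a median log2 fold change of 0.13. Under TPM, TMM and quantile scaling 7, 8 and 8 rose and 1 fell. Gas6, a vitamin K-dependent ligand, stood at 621, 638 and 627 FPKM in siPfkfb3 and at 487, 501 and 495 FPKM in siScrambled. The groups lay far apart for their spread (log2 fold change 0.35 ± 0.03 SE; limma, adjusted p = 1.11e-05). Its receptor Axl did not pass (0.08; adjusted p = 0.0908), but did with quantile, TPM or TMM scaling (adjusted p of 0.0456 to 0.0484). Pros1, protein S, another vitamin K-dependent protein, rose to 53.4 ± 0.305 FPKM in siPfkfb3, against 43.1 ± 2.05 FPKM in siScrambled. Vkorc1l1, which recycles vitamin K, rose to 12.5 ± 0.752 FPKM in siPfkfb3, against 8.88 ± 0.320 FPKM in siScrambled (0.45; limma, adjusted p = 0.000272). Ggcx, the carboxylase that modifies Mgp, did not pass (0.06). Chrd, which binds and blocks bone morphogenetic proteins, fell to 1.93 ± 0.161 FPKM in siPfkfb3, against 2.91 ± 0.111 FPKM in siScrambled, and its exons overlap those of Thpo. Smad7 rose too (0.23), and Bmper rose narrowly (0.20; limma, adjusted p = 0.0482). Without siPfkfb3 replicate 1, 2 or 3 or siScrambled replicate 2 or 3, Bmper did not pass (adjusted p of 0.0664 to 0.150). Nor did Bmper pass without the filter on low values or with the replicate block (limma, adjusted p = 0.0671 and 0.0746). Without siPfkfb3 replicate 3, Ahsg was lower too, which made 2.

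Matrix vesicles are the membrane particles in which mineral first forms, and all 10 genes of that list were tested, with 2 higher and 4 lower. Smpd3, a sphingomyelinase that acts in vesicle release, stood at 2.69, 2.76 and 2.56 FPKM in siPfkfb3 and at 1.28, 1.48 and 1.53 FPKM in siScrambled (log2 fold change 0.60 ± 0.08 SE; limma, adjusted p = 0.000348). The membrane proteins Cd9 and Cd81 fell, Cd9 to 103.9 to 110.9 FPKM in siPfkfb3, against 137.4 to 140.9 FPKM in siScrambled, and Cd81 to 279.9 ± 1.39 FPKM in siPfkfb3, against 361 ± 23.0 FPKM in siScrambled. Anxa2, a calcium-binding annexin, fell to 507 ± 18.1 FPKM in siPfkfb3, against 614 ± 8.40 FPKM in siScrambled (−0.27; limma, adjusted p = 0.000144). Anxa5 rose slightly (0.09; limma, adjusted p = 0.0305), a call that ended when any siPfkfb3 library or siScrambled replicate 2 or 3 was left out (adjusted p of 0.0610 to 0.102), so that 1 gene of the list was then higher. Nor did Anxa5 pass without trend and robust fitting (limma, adjusted p = 0.136). The transglutaminase gene Tgm2 fell (−0.20), but not without siPfkfb3 replicate 2 or siScrambled replicate 1 or 3 (adjusted p of 0.0779 to 0.0811). Tgm2 also did not pass without the filter on low values (limma, adjusted p = 0.0618). Exons of Smpd3, Cd9, Cd81, Anxa2 and Tgm2 overlap genes on the opposite strand.

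While Spp1 itself did not pass, 6 of 11 tested genes for osteopontin receptors and the proteases that cut it rose and 2 fell, with a median log2 fold change of 0.22. Under TPM, TMM and quantile scaling 7 rose and 1 fell. Itga8, Itgb5 and Cd44 rose by 0.36, 0.33 and 0.30 on the log2 scale (limma, adjusted p = 0.000581, 2.42e-05 and 0.000184). Itgb5, a beta subunit of osteopontin-binding integrins, had 259 ± 5.30 FPKM in siPfkfb3 and 206 ± 1.90 FPKM in siScrambled. Itgav, Itgb1 and Itgb3 rose by 0.29, 0.22 and 0.22, Itgb3 not without siPfkfb3 replicate 1 (adjusted p = 0.0569). In the other direction Itga5, the alpha subunit of the fibronectin receptor, stood at 29.4 to 30.3 FPKM in the 3 siPfkfb3 libraries and at 55.7 to 59.1 FPKM in the 3 siScrambled libraries. The groups stood far apart (log2 fold change −0.93 ± 0.04 SE; limma, adjusted p = 5.87e-07). The protease gene Plau fell narrowly (−0.17; limma, adjusted p = 0.0328). Its call ended under quantile, TPM and TMM scaling (adjusted p of 0.0509 to 0.0682) and without any siPfkfb3 library or siScrambled replicate 2 or 3 (adjusted p of 0.0582 to 0.0973). The call of Plau also ended without the filter on low values and without trend and robust fitting (limma, adjusted p = 0.0715 and 0.0581). The list then had 1 gene lower, except that Mmp3 was lower without siPfkfb3 replicate 2.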

How the data were processed

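RNA from 3 siPfkfb3 and 3 siScrambled samples was sequenced (mRNA libraries). The submitters' processing notes name HISAT2 as a tool and GRCm38 and mm10 as builds. Counting tool, annotation and use of strand are not given in the labels or notes. Per the file headers, the deposited values are FPKM from the authors, in 1 table with 24970 rows, 22036 of them Ensembl genes. Symbols were found for 22022 of these, and for all 10 members. FPKM keeps no read numbers, so no counting error can be given.

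Groups follow the sample titles. The 11240 genes whose mean reached 1 FPKM were fitted with limma 3.58.1 (R 4.3.3, trend and robust) on log2(FPKM + 1), two-sided, with Benjamini-Hochberg adjustment over all of them. The step was tested on simulated data. Members and lists were chosen with earlier results of these data known. The text names every member, up to 4 called genes of each related list by largest change, and other genes after their values had been seen; 1 of the 3 genes most like Tnfrsf11b is not reported here. Positions, exons and 3′ UTRs are from GENCODE M21 (GRCm38), and promoters from RefSeq (GRCm38.p6). Alternatives were pseudocounts of 0.1 and 0.5, no filter, a minimum of 5 FPKM, TPM, TMM and quantile scaling, limma with neither trend nor robust fit, the replicate block and leaving out each library. TMM was computed on the FPKM values as a trimmed mean of log ratios to the mean sample, without weights. Python 3.11.15 with pandas 2.3.3, scipy 1.17.1 and matplotlib 3.10.9 did the rest.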

Additional observations from a re-analysis of the deposited data

How the results depend on the processing

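Of 119 alternative values for the 8 tested members, 116 kept the direction and the side of the threshold of the main result, 3 for Mgp came to pass it and 0 changed direction. The number of inhibitors called lower was therefore 1 under quantile normalization and 1 with the replicate block, in place of 0, and ranged from 0 to 1 when single libraries were left out, with 1 without siScrambled replicate 2. The numbers of inhibitors called higher (1) and of promoters called in either direction (0) were the same in every alternative. Over all genes, 1775 were higher and 2304 lower, and 1451 to 1637 and 1881 to 2064 when single libraries were left out.

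The replicate number was tried as a block. Deviations of same-numbered samples from their group means correlated at −0.114, 0.0598 and 0.0550. Those of differently numbered samples correlated at −0.16 to 0.12. Whether same-numbered samples shared a mouse, a day or a batch is not given in the sources used here. With so few samples in a group, these correlations cannot decide it. With the block 1680 genes were higher and 2227 lower, and Mgp passed (log2 fold change −0.11; adjusted p = 0.0293).

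Pfkfb3 (−0.84; adjusted p = 2.66e-05) ranged from −1.12 to −0.80 and passed in all 14 alternatives that hold it; the minimum of 5 FPKM removes it and Runx2, and Alpl and Nt5e have a value only without the filter. Without single libraries the ratio of Alpl to Enpp1 was 0.0213 to 0.0254 in siPfkfb3 and 0.0426 to 0.0543 in siScrambled. How many fragments the low values of Alpl, Nt5e and Tnfsf11 rest on is unknown.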
